A study of Mus musculus with 6 samples.

Results

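The complement and coagulation genes, taken without fibrinogen, were examined in medullary thymic epithelial cells (mTECs) that lack the histone demethylase Jmjd3 and in control mTECs. The set held 41 genes, 23 of complement and 18 of coagulation, chosen by symbol and all found among the 20443 genes of the deposited tables. The 3 Jmjd3-deficient libraries (cKO_262, cKO_263 and cKO_265) came from mice with floxed Jmjd3 alleles and the Foxn1-cre transgene, which is active in thymic epithelium, so other cells of the thymus keep Jmjd3. The 3 control libraries (Con_253, Con_261 and Con_264) came from mice with the same floxed alleles and no Cre, so loss of Jmjd3 and presence of Cre cannot be told apart. All mice were C57BL/6, aged 4 weeks, and the mTECs were sorted by flow cytometry with a gate that was not given in the sources used here.

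Complement and coagulation are cascades of plasma proteases that are made mainly by the liver. In complement, recognition proteins such as C1q and the mannose-binding lectins start the cleavage of C3, and the late components assemble into a pore in the target membrane. In coagulation, tissue factor and the contact proteases lead to thrombin, which clots fibrinogen. Mature mTECs transcribe many genes of peripheral organs and show them to developing T cells, while C1q is known as a product of macrophages and other myeloid cells, and von Willebrand factor as one of endothelium and megakaryocytes.

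The promoters printed here, from 250 bases before to 50 bases after the gene's start in RefSeq (build GRCm38.p6), belong to genes to which the values below return. They are 2 of the 3 neighbouring C1q chain genes, each of which was highest in Con_253, both mannose-binding lectin genes, which had higher values in all 3 cKO libraries, and C3, the member with the highest level. Promoters were found for 31 of the 41 members. C1qb lies at chr4:136886151-136886450, minus strand, and C1qc at chr4:136892865-136893164, minus strand. Mbl1 lies at chr14:41151206-41151505, plus strand, Mbl2 at chr19:30232678-30232977, plus strand, and C3 at chr17:57228087-57228386, minus strand.
C1qb: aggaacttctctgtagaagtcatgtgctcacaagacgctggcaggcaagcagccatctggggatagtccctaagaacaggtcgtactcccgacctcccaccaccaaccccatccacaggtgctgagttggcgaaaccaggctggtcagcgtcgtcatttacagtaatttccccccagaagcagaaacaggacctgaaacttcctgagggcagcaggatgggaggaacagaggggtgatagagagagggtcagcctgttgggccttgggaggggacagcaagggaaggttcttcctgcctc
C1qc: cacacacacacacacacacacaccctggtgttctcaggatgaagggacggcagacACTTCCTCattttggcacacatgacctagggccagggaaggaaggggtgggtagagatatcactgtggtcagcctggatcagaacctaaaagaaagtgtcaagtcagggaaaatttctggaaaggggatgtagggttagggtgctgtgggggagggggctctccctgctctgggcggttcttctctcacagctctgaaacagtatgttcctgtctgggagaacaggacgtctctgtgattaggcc
Mbl1: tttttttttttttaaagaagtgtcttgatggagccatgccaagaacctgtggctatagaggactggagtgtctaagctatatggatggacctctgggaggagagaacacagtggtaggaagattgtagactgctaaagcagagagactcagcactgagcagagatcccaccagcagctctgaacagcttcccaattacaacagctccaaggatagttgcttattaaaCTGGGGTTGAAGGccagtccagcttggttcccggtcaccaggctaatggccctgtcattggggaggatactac
Mbl2: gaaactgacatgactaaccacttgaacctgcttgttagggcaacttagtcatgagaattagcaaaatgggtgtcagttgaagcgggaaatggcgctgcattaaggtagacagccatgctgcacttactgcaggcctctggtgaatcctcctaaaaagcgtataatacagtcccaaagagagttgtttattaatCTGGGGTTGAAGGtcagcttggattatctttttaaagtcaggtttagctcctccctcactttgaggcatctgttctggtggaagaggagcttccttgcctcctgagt
C3: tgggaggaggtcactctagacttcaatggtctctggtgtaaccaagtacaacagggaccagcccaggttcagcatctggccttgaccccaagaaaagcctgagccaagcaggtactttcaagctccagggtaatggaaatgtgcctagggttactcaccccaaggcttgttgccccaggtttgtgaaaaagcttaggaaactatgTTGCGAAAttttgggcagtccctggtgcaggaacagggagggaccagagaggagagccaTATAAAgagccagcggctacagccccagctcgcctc
Capitals in C1qc mark GAGGAAGT on the opposite strand, the letters searched for the myeloid factor PU.1, which start 195 bases before the gene's start. These letters, on either strand, were in 3.2% of the 32851 promoters of this length and in 2 of the 31 members with a promoter, C1qc and F13a1. Capitals in C3 mark TTGCNNAA, searched for C/EBP factors, 45 bases before the start, and TATAAA, 15 bases after it, which do not overlap each other. Of all promoters, 10.8% held the first and 13.6% the second. Of the 31 members with a promoter, 5 held the first (C3, C9, F9, F11 and Klkb1) and 4 the second (C3, C7, F3 and Klkb1). Capitals in the lectin genes mark the longest run that their promoters share, CTGGGGTTGAAGG, of 13 bases, 23 bases before the start of Mbl1 and 57 before that of Mbl2. This run was chosen after the sequences were seen, and it occurred in 3 of the 32851 promoters, those of Mbl1, Mbl2 and Slc25a53. A motif of NF-kB was in 0 of the 31 members and in 0.411% of all promoters, and one of the liver factor HNF1 was in C4bp and F13b and in 0.399% of all promoters.

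Levels are given as FPKM, fragments scaled for transcript length and for the mapped fragments of the library, so that genes can be compared. Read counts are unknown, and an exact 0 is described as listed at 0. The summed FPKM was 583466 to 641685 in the cKO libraries and 461791 to 543802 in the Con libraries. The mTEC marker Epcam was at 751 to 945 FPKM and Aire at 230.3 to 504 FPKM over all 6 libraries. The targeted gene Kdm6b, which encodes Jmjd3, was at 11.1, 11.6 and 8.67 FPKM in the cKO libraries, against 18.1, 17.1 and 9.998 FPKM in the Con libraries, so the groups overlapped. A value over the whole gene cannot tell the floxed part from the rest, so it does not check the labels. The Y-linked gene Eif2s3y reached 7.88 FPKM in Con_253, where no other library exceeded 0.0409 FPKM, so the groups did not appear matched for sex, and the members Cfp, F8 and F9 are X-linked.

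Most members were transcribed at low levels. The mean over the 6 libraries was at least 10 FPKM for 9 members, all of them complement genes, between 1 and 10 FPKM for 20, between 0.5 and 1 FPKM for 4, and under 0.5 FPKM for 8. The median member was at 2.47 FPKM among the complement genes and at 1.24 FPKM among the coagulation genes. C3, the protein on which all complement pathways meet, was at 254, 274 and 352 FPKM in the cKO libraries, against 248, 238 and 221 FPKM in the Con libraries. It alone made up 60.7% to 63.8% of the summed complement FPKM in the cKO libraries and 56.5% to 59.7% in the Con libraries. The order after C3 was Cfb (39.2 FPKM over all 6 libraries), C1qc (22.2), C2 (19.9), C8g (19.5), Mbl2 (14.4), C1qb (11.5), C1qa (10.4) and C4bp (10.1). Several neighbours in this order, such as C2 and C8g, lay within each other's spread. Tissue factor, F3, led the coagulation genes with 9.07 FPKM, followed by Kng1 (7.76), F2 (7.38), F13a1 (4.59) and F10 (4.56).

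**Figure D1:**
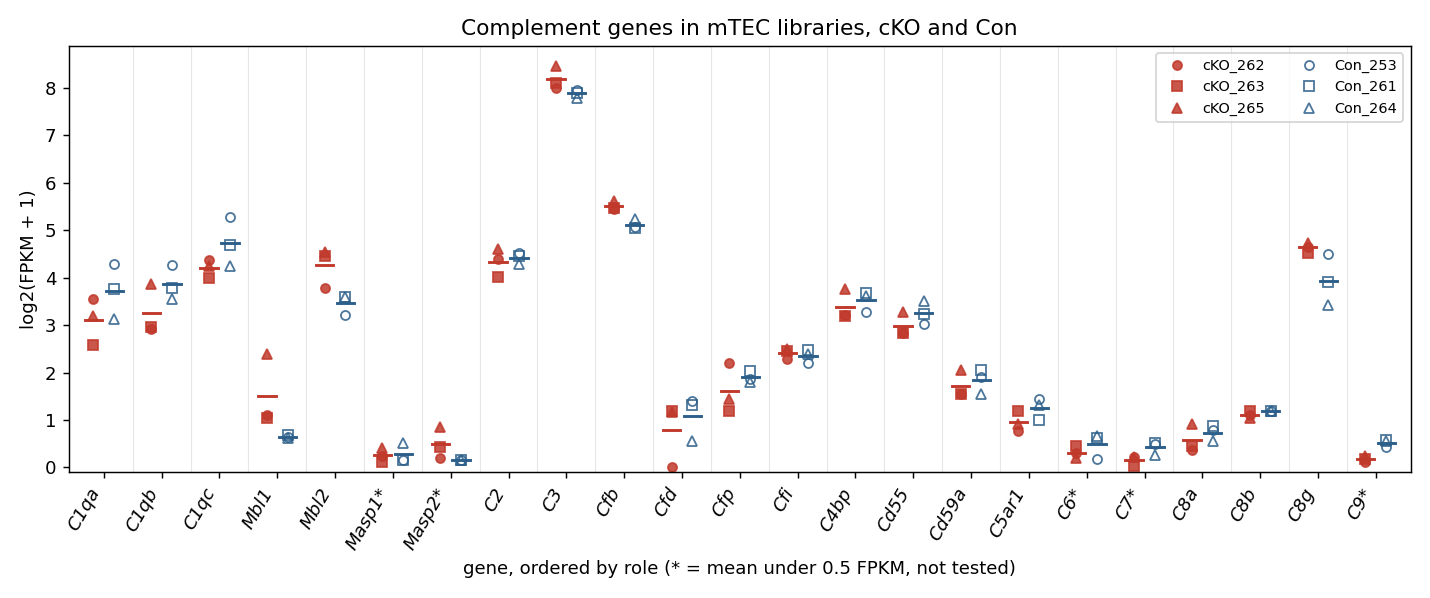
Level of the 23 complement genes on the log2(FPKM + 1) scale in each cKO (filled red) and Con (open blue) library, with a bar at the group mean, ordered by role. C3 lies above all other members. The cKO libraries of C3, Cfb, Mbl1, Mbl2, C8g and Masp2 lie above their Con libraries, and those of C7, C8b and C9 lie below, where Masp2, C7 and C9 were not tested.

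The groups were compared on log2(FPKM + 1) with limma for genes whose mean reached 0.5 FPKM, and the threshold was an adjusted p of 0.05. The filter passed 33 members, 18 of complement and 15 of coagulation, and left out C6, C7, C9, Masp1, Masp2, F9, F11 and F12. Of the 33 members 0 changed, where 12 of all 15720 tested genes did (0.0763%), 0.0191% with higher and 0.0573% with lower values in cKO mTECs. At an unadjusted p under 0.05 stood 4 complement genes with higher values in cKO mTECs (Mbl2, Cfb, C8g and Mbl1) and 1 coagulation gene with lower values (Proc). These 5 are 15.2% of the tested members, where 14.6% of all tested genes stood there, so the share over both lists is near the background. Taken apart, the share was 22.2% of the 18 complement genes and 6.67% of the 15 coagulation genes, which rest on 4 genes and 1 gene. By direction, the background was 6.81% with higher and 7.82% with lower values. For 8 tested members (24.2%) the groups had no overlap, 6 with cKO above Con and 2 with cKO below. Over all tested genes this held for 21.5%, with 9.59% above and 11.9% below. Values were lower in cKO mTECs for 12 of the 18 complement and 9 of the 15 coagulation genes, where 54.7% of all tested genes had lower values. Of these 8, 6 were among the 18 complement genes and 2 among the 15 coagulation genes. The median log2 fold change, cKO minus Con, was -0.12 for the complement genes and -0.09 for the coagulation genes, where that of all tested genes was -0.04. When the libraries were weighted by limma's array weights, 9 members passed, namely C1qa, C1qb, C1qc, C8g, Cfb, Mbl2, F3, F7 and Proc, but 3025 of all tested genes passed as well, and Con_261 then had a weight of 8.72 and cKO_265 of 0.263.

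**Figure D2:**
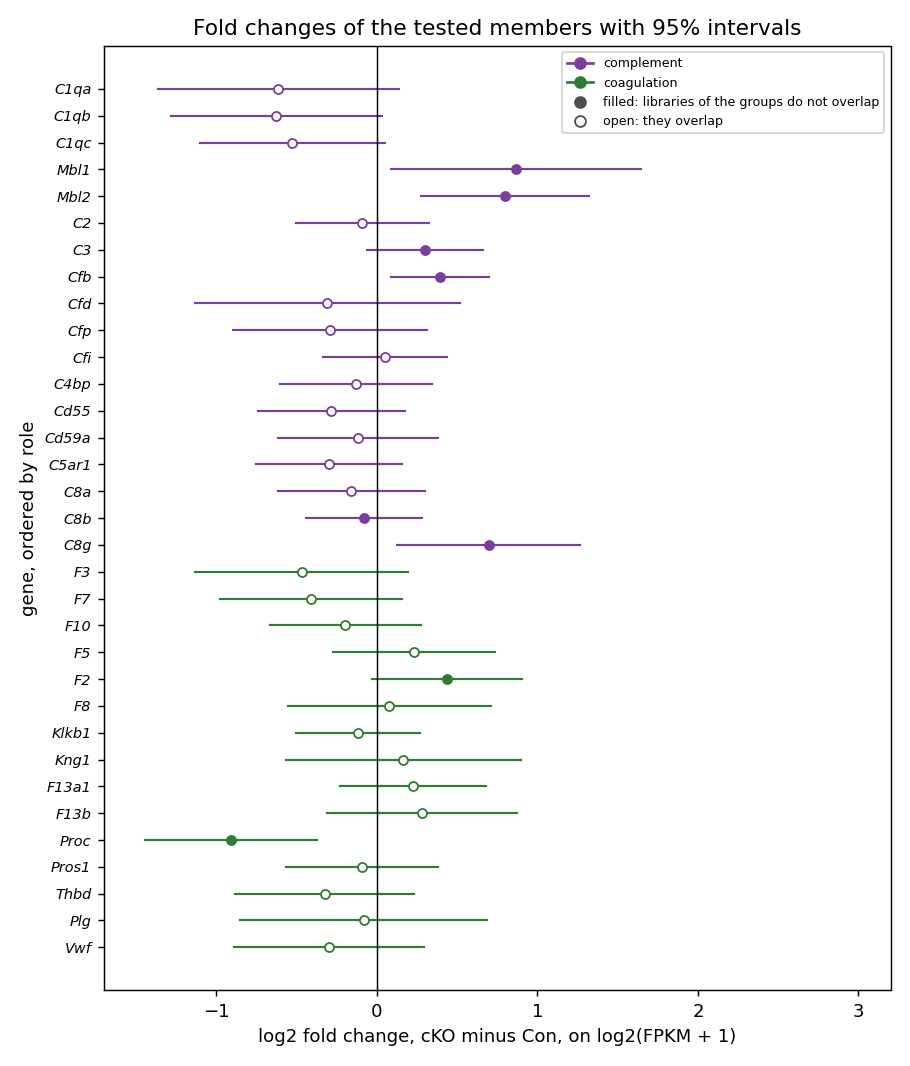
Log2 fold change (cKO minus Con, on log2(FPKM + 1)) of the 33 tested members with the 95% interval of the fit, complement in purple and coagulation in green, where filled points mark genes whose libraries do not overlap between the groups. The intervals of Mbl1, Mbl2, Cfb and C8g lie above 0 and that of Proc below 0, and 0 members passed the adjusted threshold.

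Both mannose-binding lectin genes of the lectin pathway had higher values in the cKO libraries, without passing the test. Of the related lectin genes read here, Colec12 was higher in each cKO library as well (log2 fold change 0.59, limma adjusted p = 0.358). The others overlapped between the groups, with log2 fold changes of -0.19 for Fcna, -0.35 for Fcnb and 0.38 for Colec11, while Colec10 was too low to test. These genes were chosen after their values were seen. Mbl2, a mannose-binding lectin that binds sugars of microbes, was at 12.7, 20.99 and 22.3 FPKM in the cKO libraries, against 8.22, 11.02 and 11.1 FPKM in the Con libraries. Each cKO library lay above each Con library, cKO_262 by the smallest margin. The log2 fold change of 0.80 (SE 0.23, 95% interval 0.27 to 1.32) did not pass the test (limma, unadjusted p = 0.00773, adjusted p = 0.190). Mbl1, the second such lectin of the mouse, was at 1.14, 1.06 and 4.29 FPKM in the cKO libraries, against 0.558, 0.597 and 0.545 FPKM in the Con libraries. The Con libraries were nearly equal, while cKO_265 stood far above the other two cKO libraries. The log2 fold change of 0.87 (SE 0.34, limma adjusted p = 0.291) was 0.42 without cKO_265. The genes lie on different chromosomes of mm10, Mbl1 on chromosome 14 from 41151456 to 41158959 and Mbl2 on chromosome 19 from 30232957 to 30239682. The lectin-associated proteases were near the lower limit. Masp2, which cleaves the next components of the pathway, was at 0.150, 0.348 and 0.810 FPKM in the cKO libraries, against 0.122, 0.121 and 0.118 FPKM in the Con libraries. Exons of Masp2 overlap those of Tardbp on the opposite strand in GENCODE, and strand was not stated, so reads of the 2 genes cannot be told apart. Masp1 lay between 0.0857 and 0.322 FPKM in the cKO libraries and between 0.115 and 0.427 FPKM in the Con libraries.

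The 3 genes of the C1q chains, which together form the recognition molecule of the classical pathway, had lower mean values in the cKO libraries, without passing. They lie side by side on chromosome 4 of mm10, C1qb from 136880145 to 136886177, C1qc from 136889802 to 136892914 and C1qa from 136895916 to 136898844, all on the minus strand and protein coding. C1qa was at 10.7, 5.02 and 8.13 FPKM in the cKO libraries, against 18.5, 12.5 and 7.75 FPKM in the Con libraries. C1qb was at 6.60, 6.77 and 13.5 FPKM in the cKO libraries, against 18.4, 12.8 and 10.8 FPKM in the Con libraries. C1qc was at 19.8, 15.04 and 17.87 FPKM in the cKO libraries, against 37.7, 24.6 and 17.94 FPKM in the Con libraries. For each chain Con_253 was the highest library. The groups overlapped through Con_264 for C1qa and C1qc, and through cKO_265 for C1qb. Log2 fold changes were -0.61 (SE 0.33) for C1qa, -0.63 (SE 0.29) for C1qb and -0.53 (SE 0.25) for C1qc, with limma adjusted p of 0.433, 0.364 and 0.380. Without Con_253 they were -0.33, -0.43 and -0.25, and without cKO_263 that of C1qa was -0.35. Of the sum of the chains, C1qc held 45.2% to 56.0% in the cKO libraries and 49.2% to 50.6% in the Con libraries. C1qa held 18.7% to 28.8% in the cKO libraries and 21.2% to 25.0% in the Con libraries, and C1qb held 17.8% to 34.2% in the cKO libraries and 24.6% to 29.6% in the Con libraries. The proportions thus varied more among the cKO libraries.

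Macrophage markers were read beside the C1q genes. The summed FPKM of the 13 markers lay between 364 and 395 in the cKO libraries and between 441 and 485 in the Con libraries. Of the 13, Lyz2, Mertk and Timd4 were lower in each cKO library than in each Con library, Aif1 was higher, and 9 overlapped. Over all tested genes, 11.9% were lower in each cKO library and 9.59% were higher. Aif1 was at 14.996, 16.07 and 10.14 FPKM in the cKO libraries, against 4.73, 4.28 and 3.85 FPKM in the Con libraries. Its log2 fold change of 1.46 was the largest among the tested macrophage markers, without passing (limma adjusted p = 0.0555). Lyz2, the lysozyme gene of myeloid cells, was at 267, 242 and 275 FPKM in the cKO libraries, against 362, 324 and 347 FPKM in the Con libraries (limma adjusted p = 0.228). Without Lyz2 the sums were 106 to 122 FPKM in the cKO libraries and 93.8 to 123 FPKM in the Con libraries, which overlapped. Emr1, the F4/80 antigen, was at 0.814 to 1.92 FPKM in the cKO libraries and 1.41 to 2.08 FPKM in the Con libraries, and Fcgr1 was listed at 0 in cKO_265 alone. The part of macrophage RNA in the C1q values was not tested, and in bulk libraries fewer cells of a type and less RNA per cell cannot be told apart.

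**Figure D3:**
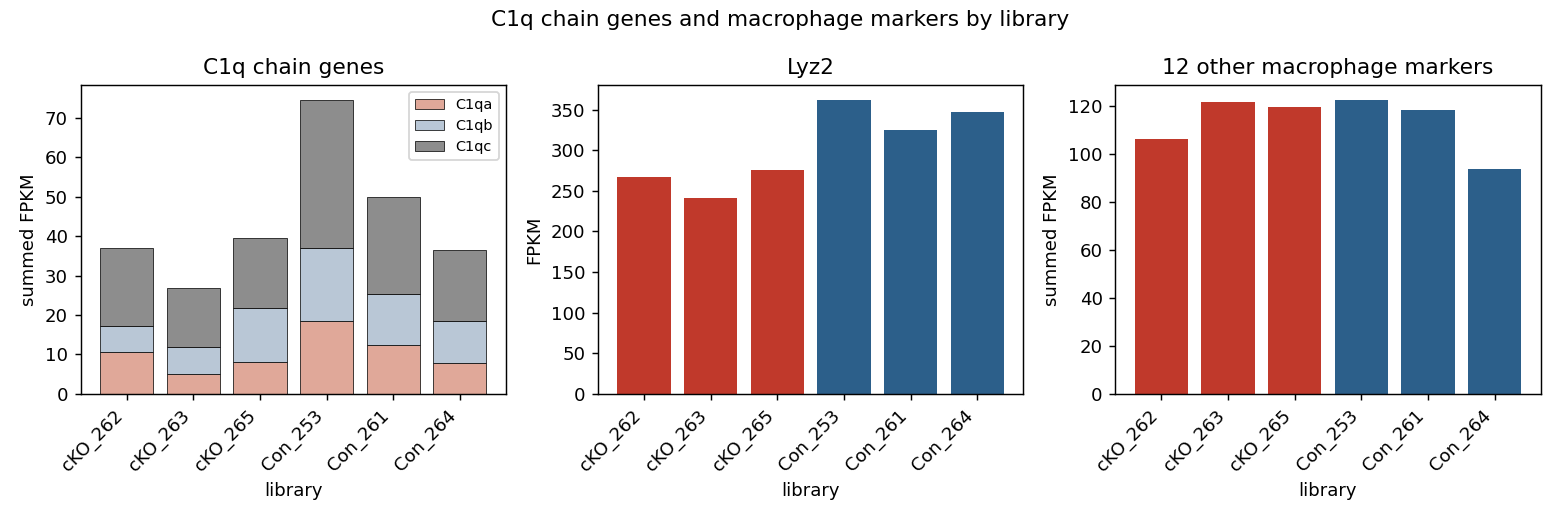
Summed FPKM of the C1q chain genes (left), FPKM of Lyz2 (middle) and summed FPKM of the 12 other macrophage markers (right) in each library, cKO in red and Con in blue in the last 2 panels. C1q is highest in Con_253 and overlaps between the groups, Lyz2 is lower in each cKO library, and the sum of the 12 other markers overlaps.

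The genes of the C3 convertases differed among themselves. Cfb, factor B, the protease that builds the alternative convertase with C3, was at 42.4, 43.4 and 48.1 FPKM in the cKO libraries, against 32.5, 32.003 and 36.8 FPKM in the Con libraries. The groups did not overlap, and their means were 44.6 ± 2.996 FPKM in the cKO libraries and 33.8 ± 2.63 FPKM in the Con libraries (SD, n = 3 each). On the log2 scale the difference of 0.39 (SE 0.13, 95% interval 0.09 to 0.70) did not pass (limma, unadjusted p = 0.0176, adjusted p = 0.240). C3 had a log2 fold change of 0.30 (SE 0.16, 95% interval -0.06 to 0.66, limma adjusted p = 0.422), with each cKO library above each Con library. Without cKO_265 it was 0.16, and under quantile normalization 0.0035. Over all genes this scale matters. Dividing each library by its summed FPKM, an alternative chosen after the data were seen, moved the median of all tested genes to -0.27. The fold changes of C3 and Cfb were then 0.0038 and 0.10, those of Mbl2 and C8g 0.52 and 0.42, and that of F2 was 0.18. Members with lower values had larger falls than in the main fit, with -1.07 for Proc (limma adjusted p = 0.0514). C1qa, C1qb and C1qc were then at -0.88, -0.90 and -0.81, also without passing. C2, the classical counterpart of factor B, was at 19.9, 15.1 and 23.3 FPKM in the cKO libraries, against 21.9, 21.1 and 18.4 FPKM in the Con libraries. The cKO libraries of C2 lay on both sides of the Con libraries, with a log2 fold change of -0.09 (95% interval -0.51 to 0.33). C2 and Cfb are neighbours on chromosome 17 of mm10, C2 from 34862602 to 34882100 and Cfb from 34856374 to 34862514, and GENCODE has a further gene, Gm20547, whose exons overlap those of both, so the division of reads between them is uncertain.

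Factor D and properdin, which activate and stabilise the alternative convertase, were low. Cfp, the properdin gene, was at 3.61, 1.27 and 1.71 FPKM in the cKO libraries, against 2.63, 3.10 and 2.50 FPKM in the Con libraries, so that cKO_262 was the highest and the other two cKO libraries the lowest of the 6. Cfd was listed at 0 in cKO_262, while cKO_263 held 1.299 and cKO_265 held 1.24 FPKM, against 1.65, 1.51 and 0.470 FPKM in the Con libraries. The tables give Cfd a span of 672333 bases on chromosome 10, where the gene itself runs from 79890853 to 79892655 in GENCODE, so its value is uncertain.

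The regulators of complement among the members overlapped between the groups. Cfi, the protease that cleaves C3b with a cofactor, was at 3.86, 4.44 and 4.62 FPKM in the cKO libraries, against 3.58, 4.59 and 4.23 FPKM in the Con libraries (log2 fold change 0.05, 95% interval -0.33 to 0.43). C4bp, such a cofactor, was at 8.28, 8.14 and 12.6 FPKM in the cKO libraries, against 8.65, 11.8 and 11.2 FPKM in the Con libraries (log2 fold change -0.13, 95% interval -0.60 to 0.34). For C4bp the Con values lay within the range of the cKO values, and for Cfi the ranges were shifted but overlapped. Cd55, a membrane protein that speeds the decay of convertases, was at 6.12, 6.10 and 8.68 FPKM in the cKO libraries, against 7.13, 8.48 and 10.5 FPKM in the Con libraries. Its values in cKO_262 and cKO_263 lay under all of the Con values, and that in cKO_265 lay among them (log2 fold change -0.28, 95% interval -0.74 to 0.17). Cd59a, a membrane protein that blocks the late pore, was at 1.92, 1.93 and 3.17 FPKM in the cKO libraries, against 2.75, 3.13 and 1.94 FPKM in the Con libraries. Its relative Cd59b lies beside it, and the handling of reads shared by such copies was not given. C5ar1, the myeloid receptor of the C5a fragment, was at 0.697 to 1.29 FPKM in the cKO libraries and 1.001 to 1.73 FPKM in the Con libraries (log2 fold change -0.30, SE 0.20, limma adjusted p = 0.529).

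Among the genes of the late pore C8g stood apart from the other subunits. C8g, the lipocalin-like gamma chain of C8, was at 24.1, 22.0 and 25.7 FPKM in the cKO libraries, against 21.5, 13.9 and 9.78 FPKM in the Con libraries. The cKO libraries were close together and lay above all Con libraries, Con_253 by a small margin, and the Con libraries spread widely. The log2 fold change was 0.70 (SE 0.25, limma unadjusted p = 0.0222, adjusted p = 0.253), and it was 0.44 without Con_264 and 0.97 without Con_253. The tables give C8g a span on chromosome 2 from 25498650 to 25505470, longer than the gene in GENCODE, which ends at 25501719, so part of its value may belong to transcripts that run beyond it. The chains that C8g is joined to in the protein were far lower. C8a was at 0.299 to 0.879 FPKM in the cKO libraries and 0.465 to 0.829 FPKM in the Con libraries. C8b was at 1.16, 1.27 and 1.07 FPKM in the cKO libraries, against 1.296, 1.29 and 1.29 FPKM in the Con libraries. Its groups did not overlap, yet by so little that the log2 fold change was -0.08 (SE 0.16, limma adjusted p = 0.857).

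The remaining pore components did not reach the level at which genes were tested. C7, which anchors the growing pore in the membrane, was at 0.162, 0.0256 and 0.165 FPKM in the cKO libraries, against 0.402, 0.439 and 0.204 FPKM in the Con libraries. C9, which forms the ring of the pore, was at 0.0824, 0.124 and 0.177 FPKM in the cKO libraries, against 0.357, 0.491 and 0.465 FPKM in the Con libraries. For both the cKO libraries lay under all Con libraries, at values too low to test. The share of all untested genes with this pattern was not computed. Of all genes, 66.9% to 67.5% reached 1 FPKM in the cKO libraries and 68.6% to 69.5% in the Con libraries. Each cKO library thus held fewer such genes than each Con library, so low values of single members cannot be read as particular to them. C6 overlapped between the groups, at 0.151 to 0.362 FPKM in the cKO libraries and 0.125 to 0.585 FPKM in the Con libraries.

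Coagulation genes were then read in the order of the cascade. F3, tissue factor, the membrane protein that starts clotting, was at 5.44, 5.45 and 12.2 FPKM in the cKO libraries, against 9.53, 9.14 and 12.6 FPKM in the Con libraries. In cKO_262 and cKO_263 it lay under all Con libraries and in cKO_265 among them, so the groups overlapped (log2 fold change -0.47, SE 0.29, limma adjusted p = 0.5004). It was -0.81 without cKO_265, -0.294 without cKO_262 and -0.2945 without cKO_263. F7, the protease that tissue factor binds, was at 0.338 to 1.15 FPKM in the cKO libraries and 0.917 to 2.04 FPKM in the Con libraries (log2 fold change -0.41, SE 0.25, limma adjusted p = 0.491). F10, which they activate, was at 3.11, 4.90 and 4.58 FPKM in the cKO libraries, against 4.32, 6.02 and 4.46 FPKM in the Con libraries. F5, the cofactor of the F10 product, was at 0.713 to 1.79 FPKM in the cKO libraries and 0.699 to 1.15 FPKM in the Con libraries. The tables start its span on chromosome 1 at 164115264, before the gene's start at 164151838 in GENCODE, so its value is uncertain.

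F2, the prothrombin gene, was the coagulation member with higher values in each cKO library. It was at 8.56, 7.92 and 9.23 FPKM in the cKO libraries, against 7.84, 6.29 and 4.45 FPKM in the Con libraries. The groups were separated by a small gap between cKO_263 and Con_253. The log2 fold change of 0.44 (SE 0.20, 95% interval -0.03 to 0.90) did not pass (limma, unadjusted p = 0.0624, adjusted p = 0.367), and it was 0.25 without Con_264.

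**Figure D4:**
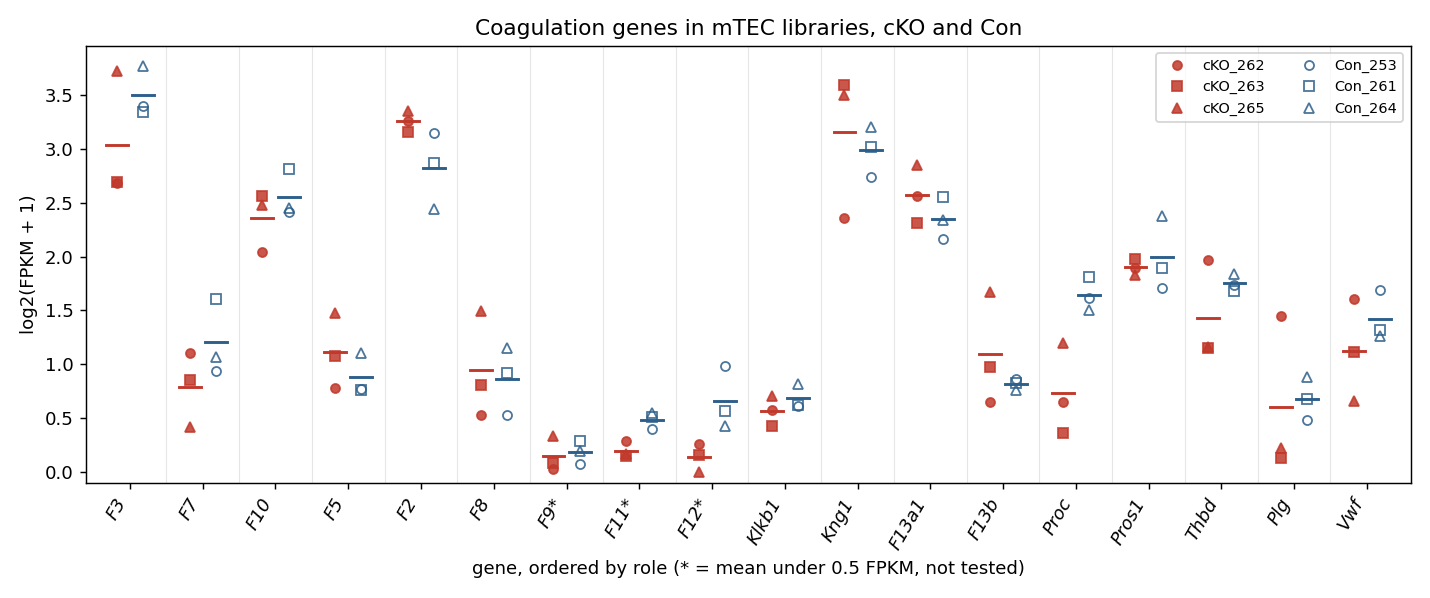
Level of the 18 coagulation genes on the log2(FPKM + 1) scale in each cKO (filled red) and Con (open blue) library, with a bar at the group mean, ordered by role. Proc, F11 and F12 lie lower in each cKO library than in each Con library, F2 lies higher, and the other genes overlap, where F11 and F12 were not tested.

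The proteases of the contact and intrinsic pathway were near the lower limit, apart from kininogen. Kng1, the source of bradykinin and a cofactor of contact activation, was at 4.13, 11.1 and 10.4 FPKM in the cKO libraries, against 5.66, 7.12 and 8.23 FPKM in the Con libraries. Its cKO libraries lay on both sides of the Con libraries (log2 fold change 0.17, 95% interval -0.57 to 0.90), and it has a close relative, Kng2. F12, the contact factor, was listed at 0 in cKO_265, while cKO_262 held 0.199 and cKO_263 held 0.114 FPKM, against 0.976, 0.482 and 0.341 FPKM in the Con libraries. F11, which F12 activates, was at 0.223, 0.105 and 0.119 FPKM in the cKO libraries, against 0.320, 0.426 and 0.458 FPKM in the Con libraries. Both lay lower in each cKO library, under the level of the test. As for C7 and C9, the share of all untested genes with this pattern was not computed. Klkb1, plasma prekallikrein, was at 0.344 to 0.634 FPKM in the cKO libraries and 0.534 to 0.767 FPKM in the Con libraries. Its exons overlap those of Gm45753 on the same strand in GENCODE, so the division of reads between them is uncertain. The haemophilia genes F8 and F9, both X-linked, were at 0.446 to 1.81 and 0.0197 to 0.259 FPKM in the cKO libraries, against 0.444 to 1.22 and 0.0497 to 0.224 FPKM in the Con libraries.

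The subunits of factor XIII, which cross-links the clot, overlapped between the groups. F13a1, the catalytic subunit and a gene of monocytes and macrophages as well, was at 4.92, 3.98 and 6.20 FPKM in the cKO libraries, against 3.48, 4.88 and 4.05 FPKM in the Con libraries. F13b, the carrier subunit from liver, was at 0.571 to 2.19 FPKM in the cKO libraries and 0.701 to 0.820 FPKM in the Con libraries. The log2 fold change of F13a1 was 0.22 (SE 0.20, limma adjusted p = 0.649), and it was -0.02 with the summed FPKM of the libraries made equal.

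The anticoagulant gene Proc had the smallest p of all members. Proc, protein C, a protease that inactivates the cofactors F5 and F8, was at 0.566, 0.289 and 1.29 FPKM in the cKO libraries, against 2.07, 2.52 and 1.83 FPKM in the Con libraries. Each cKO library lay under each Con library, cKO_265 by the smallest margin. The mean was 0.714 ± 0.515 FPKM in the cKO libraries and 2.14 ± 0.346 FPKM in the Con libraries (SD, n = 3 each). On the log2 scale the difference of -0.91 (SE 0.24, 95% interval -1.45 to -0.37) did not pass (limma, unadjusted p = 0.00425, adjusted p = 0.165), and it ranged from -1.14 without cKO_265 to -0.73 without cKO_263. Pros1, protein S, the cofactor of protein C, was at 2.73, 2.93 and 2.55 FPKM in the cKO libraries, against 2.26, 2.73 and 4.18 FPKM in the Con libraries. Thbd, thrombomodulin, which turns thrombin to the activation of protein C, was at 2.92, 1.22 and 1.23 FPKM in the cKO libraries, against 2.34, 2.21 and 2.57 FPKM in the Con libraries. Neither gene separated the groups, with log2 fold changes of -0.09 (95% interval -0.57 to 0.38) and -0.33 (95% interval -0.88 to 0.23). Plg, plasminogen, was at 1.72 FPKM in cKO_262 and at 0.0956 and 0.167 FPKM in the other two cKO libraries, against 0.397 to 0.848 FPKM in the Con libraries. Exons of Plg overlap those of Slc22a3 on the opposite strand in GENCODE, and strand was not stated.

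Vwf, von Willebrand factor, which tethers platelets, was at 0.582 to 2.05 FPKM in the cKO libraries and 1.40 to 2.23 FPKM in the Con libraries (log2 fold change -0.30, SE 0.26, limma adjusted p = 0.641). Of the 10 endothelial markers Pecam1, Cdh5 and Tek were lower in each cKO library and 7 overlapped. Their summed FPKM was 18.001 to 28.1 in the cKO libraries and 22.2 to 30.1 in the Con libraries. Without Esam, the sum was 10.7 to 13.5 FPKM in the cKO libraries and 13.9 to 17.3 FPKM in the Con libraries. Each cKO library then lay lower, but leaving out Esam was not planned, and with it the groups overlapped. Esam itself was at 15.2, 14.6 and 7.32 FPKM in the cKO libraries, against 13.4, 10.4 and 8.34 FPKM in the Con libraries. For single genes, 11.9% of all tested genes were lower in each cKO library, and the part of endothelial RNA in Vwf and Thbd was not tested. The 5 platelet and megakaryocyte markers summed to 13.6 to 19.5 FPKM in the cKO libraries and 10.8 to 20.5 FPKM in the Con libraries. Of these 5, Ppbp was lower in each cKO library, at 0.543, 0.680 and 0.187 FPKM in the cKO libraries, against 1.37, 1.14 and 1.23 FPKM in the Con libraries (limma adjusted p = 0.201). Of the 8 markers of thymocytes 5 were lower in each cKO library, among them Rag1, which was too low to test. Over all tested genes 11.9% were lower in this way. None of the tested thymocyte markers passed, and the smallest limma adjusted p among them was 0.156, for Cd3e. Their sums were 23.5 to 30.4 FPKM in the cKO libraries and 34.1 to 50.97 FPKM in the Con libraries, Rag1 included. The 8 hepatocyte products summed to 166 to 224 FPKM in the cKO libraries and 175 to 233 FPKM in the Con libraries, where Tat was lower in each cKO library and 7 genes overlapped.

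A gene could have several rows in the tables, as 7 members did, and the rows were summed. For C8g the larger row held 73.4% to 90.0% of the value in the cKO libraries and 65.2% to 81.5% in the Con libraries, and for Cfb 86.2% to 96.3% in the cKO libraries and 88.6% to 90.7% in the Con libraries. The smaller row of F10 was listed at 0 in cKO_263 and cKO_265, held 31.3% of the value in cKO_262 and held 11.2% to 27.8% in the Con libraries. The main row of F8 held 66.1% to 99.95% of its value in the cKO libraries, but 13.5% in Con_253, where another row held 68.7%, against 81.9% and 99.8% in Con_261 and Con_264. For Kng1 the row that held 27.3% in cKO_263 held at most 12.7% in the other 5 libraries. With only the highest row of each symbol, 0 members passed as well.

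**Figure D5:**
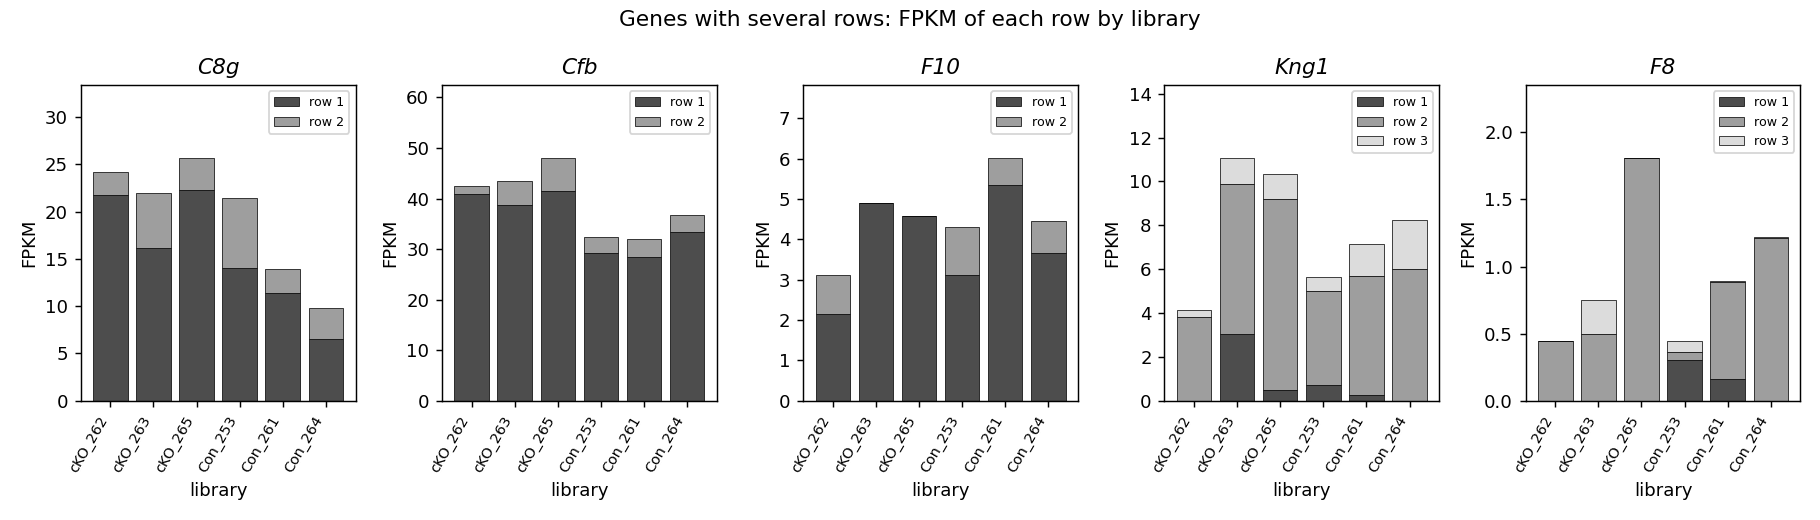
FPKM of each row of C8g, Cfb, F10, Kng1 and F8, stacked, in each library, with the cKO libraries on the left of each panel. The larger row of C8g and of Cfb carries the difference between the groups. The largest row of F8 is another one in Con_253, and the smaller rows of Kng1 change places between libraries.

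The libraries differed among themselves in which was extreme. Of the 33 tested members cKO_265 was the highest of the 6 libraries for 15 (45.5%) and the lowest for 3 (9.09%), where it was highest for 24.1% and lowest for 30.2% of all tested genes. By contrast cKO_262 and cKO_263 were the lowest for 9 and 10 members and the highest for 3 and 1. Of all tested genes, cKO_262 and cKO_263 were lowest for 15.2% and 15.8% and highest for 14.01% and 14.8%. The summed coagulation FPKM was 40.0, 43.3 and 55.6 in the cKO libraries, against 44.9, 49.1 and 50.5 in the Con libraries. The sum of the complement genes without C3 was 164, 156 and 199.6 FPKM in the cKO libraries, against 191, 166 and 149 FPKM in the Con libraries. Both sums overlapped between the groups.

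Other genes of the cascades were read from lists written from general knowledge. Of 33 further complement genes, 23 were tested and 0 changed, and at an unadjusted p under 0.05 stood 2 with higher and 2 with lower values (limma), where the shares of all tested genes were 6.81% and 7.82%. Clu, clusterin, which binds the late complex and keeps it from membranes, was at 995, 1063 and 1159 FPKM in the cKO libraries, against 772, 779.5 and 629 FPKM in the Con libraries (log2 fold change 0.56, SE 0.15, limma adjusted p = 0.174). C1qbp, a mostly mitochondrial protein that binds the heads of C1q, was at 114, 116 and 130.2 FPKM in the cKO libraries, against 87.2, 83.2 and 71.1 FPKM in the Con libraries (log2 fold change 0.57, limma adjusted p = 0.148). For both, each cKO library lay above each Con library. Serping1, the C1 inhibitor, averaged 26.1 ± 3.87 FPKM in the cKO libraries and 33.4 ± 1.45 FPKM in the Con libraries (SD, n = 3 each, limma adjusted p = 0.323). Itgb2, the integrin chain of the leukocyte complement receptors, was at 1.88, 2.45 and 1.82 FPKM in the cKO libraries, against 5.07, 3.19 and 3.61 FPKM in the Con libraries (log2 fold change -0.69, SE 0.20, limma adjusted p = 0.192).

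Of 40 further coagulation genes 33 were tested and 0 changed, and at an unadjusted p under 0.05 stood 5 with higher and 2 with lower values (limma), against the same 6.81% and 7.82% of all tested genes. Bdkrb1, the inducible receptor of kinins, was at 100.01, 89.5 and 68.6 FPKM in the cKO libraries, against 59.1, 44.5 and 35.3 FPKM in the Con libraries (log2 fold change 0.89, SE 0.22, limma adjusted p = 0.147). Serpinb2, an inhibitor of urokinase, was at 45.8, 53.0 and 69.6 FPKM in the cKO libraries, against 79.7, 108 and 138 FPKM in the Con libraries (log2 fold change -0.92, SE 0.23, limma adjusted p = 0.152). Each had no overlap between the groups, in opposite directions. Tfpi, the inhibitor of the tissue factor pathway, averaged 23.0 ± 4.09 FPKM in the cKO libraries and 14.6 ± 2.81 FPKM in the Con libraries, and the thrombin inhibitor gene Serpine2 averaged 52.2 ± 14.6 and 31.4 ± 4.17 FPKM in them (SD, n = 3 each), with limma adjusted p of 0.204 and 0.213.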

How the data were processed

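Per the labels' protocols, RNA of sorted mTECs was amplified as cDNA with a single-cell whole-transcriptome kit, which can favour transcripts by length and composition. The authors deposited a table of FPKM for each library, made on build mm10 with Bowtie2 2.2.5 and Cufflinks, as the submitters' processing notes name them. The Cufflinks version, annotation, strand and handling of shared reads are not given in the sources used here. The 25025 rows were summed by symbol, after 44 rows with symbols turned into dates were left out. Values were put on log2(FPKM + 1), and genes whose mean reached 0.5 FPKM went into limma (version 3.58.1, run in R 4.3.3) with lmFit and trended eBayes, 2-sided, with Benjamini-Hochberg adjustment over all tested genes. Fold changes are cKO minus Con, and the added 1 understates those of low genes. The fit was tested on simulated data whose changes were larger than those of any tested member and lay in genes above the level of most members. Such a test does not show what the fit can find among the members.

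The tables hold no counts, so depth is unknown. The labels number the libraries but do not state that each is a separate mouse, so p-values measure the spread between libraries, which may be technical. Coordinates are those of the tables with the start raised by 1 base, and gene models are GENCODE M21 (GRCm38). Members and lists were chosen with earlier results of these data known. Values in each library are given for members without overlap between groups or with a mean from 2 FPKM up, and, of other pathway genes, the 4 with the smallest p in each list are named. Alternatives changed the pseudocount, filter, scaling, weights, rows or libraries.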

Additional observations from a re-analysis of the deposited data

How the results depend on the processing

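No paired analysis was possible because the groups share no replicate numbers. Across all genes 12 changed, and 2 to 23 with 1 library left out, 233 with the summed FPKM made equal and 3025 with array weights. Complement and coagulation members past the threshold were 0 and 0 under each alternative except array weights (6 and 3). Among further pathway genes, array weights called 5 of complement and 9 of coagulation, and equal summed FPKM called 1, Serpinb2. The complement median of -0.12 was -0.33 with array weights and -0.35 with equal summed FPKM, and -0.25 to -0.05 with 1 library left out. The coagulation median of -0.09 was -0.24 with a pseudocount of 0.1, 0.17 at a mean of at least 5 FPKM (3 genes), 0.0262 under quantile normalization, -0.20 without both Con_253 and cKO_265 and -0.23 with equal summed FPKM. With 1 library left out it was -0.16 to 0.01996, the positive value without Con_264.

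Of 23 members followed, 17 kept their direction under each alternative in which they were tested. C2 was 0.0723 without cKO_263. C8b was 0.0434 under quantile normalization and 0.00029 under median centring. Cfi was -0.0369 with array weights, -0.0725 without both Con_253 and cKO_265 and -0.19 with equal summed FPKM, and -0.0303 (without Con_253) to 0.114 with 1 library left out. F13a1 was -0.10, -0.0052 and -0.0215 with array weights, without both libraries and with equal summed FPKM. Pros1 was 0.0203 under quantile normalization, 0.0404 with array weights and 0.10 without Con_264. Kng1 was -0.0554 without cKO_263 and -0.01 without cKO_265, up to 0.5615 with another library left out, -0.14 without both Con_253 and cKO_265 and -0.10 with equal summed FPKM. The cause was not tested. Equal summed FPKM was chosen after seeing the data. Depth is unknown, so what it limits cannot be stated.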
